A study of Arabidopsis thaliana with 18 samples.

Results

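SnRK1 is the energy sensor kinase of plants, the counterpart of yeast SNF1 and animal AMPK. It acts as a complex of a catalytic α subunit, a β subunit that carries and localizes the complex, and a γ-type subunit, which in plants is the hybrid KINβγ. The SnRK1 activating kinases (SnAK1 and SnAK2) phosphorylate the α subunit in its activation loop, and the complex is known for switching on catabolic genes when sugar runs short, as at the end of the night. The 10 genes described here are those that code for the subunits and for these upstream kinases in Arabidopsis. They were chosen by locus: SnRK1α1 (AT3G01090), SnRK1α2 (AT3G29160, KIN11), SnRK1α3 (AT5G39440, SnRK1.3), KINβ1 (AT5G21170), KINβ2 (AT4G16360), KINβ3 (AT2G28060), KINβγ (AT1G09020, SNF4), KINγ (AT3G48530, KING1), SnAK1 (AT5G60550, GRIK2) and SnAK2 (AT3G45240, GRIK1). All 10 were among the 32833 genes of the deposited table, 9 passed the filter on low values, and SnRK1α3 had no read in any library.

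RNA came from whole rosettes of 20-d-old plants grown under equal days and nights, taken at day end (ED, ZT 12 h) or night end (EN, ZT 24 h). The 3 genotypes were the wild type Col-0, the line SnRK1α1-OE carrying 35S::SnRK1alpha1, and sesquiα2, which is homozygous for the insertion GABI_579E09 in SnRK1α1 and heterozygous for the insertion WiscDsLox384F5 in SnRK1α2. All 3 are in the Col-0 background. The 35S promoter drives the transgene in most cells, each of the 18 libraries (3 per group) is a pool of rosettes, and sesquiα2 plants were first selected on BASTA plates whereas the others were sown on soil, so that growth history and genotype cannot be told apart. Column headers also end in S and a number, whose meaning is not given. At ED these were S1, S3 and S4 for SnRK1α1-OE and S16, S17 and S20 for Col-0. All sesquiα2 libraries had S25 to S47, above every Col-0 number. In those comparisons the header numbers and genotype cannot be told apart. Reads assigned to genes, as recovered from the deposited values, numbered 35050877 to 40416618 per library. The leaf genes RBCS1A, RCA and LHCB1.3 summed to between 1200720 and 2269080 in every library, against at most 16.7 for the 3 root genes, 46.7 for the 4 flower genes and 24.3 to 267 for the 2 shoot apex genes. The 2 seed genes were at 0 in 5 of the 6 groups and reached 10.12 in SnRK1α1-OE at ED, through CRU3. The clock gene CCA1, which peaks at dawn, was at 44.2 to 113 in the ED libraries and 21839 to 30986 in the EN libraries, as the time labels have it.

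Values below are the deposited values, which are read counts scaled by the authors so that every library has about the same total. "Called" means an adjusted p under 0.05 in limma over all genes tested, and fold changes are on the log2(value + 1) scale. Levels of different genes are compared only per kilobase (kb) of exon. The reads come from whole rosettes, so that fewer cells of a type and less RNA per cell cannot be told apart for any gene below.

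The stretch around the transcription start of 3 members is shown because KINβ1, KINβ2 and KINγ were the subunit genes that were called between ED and EN in each genotype. Each window runs from 250 bases before the start to 50 bases after it, from the TAIR10.1 reference genome, plus strand, for KINβ1 chr5:7205227-7205526, for KINγ chr3:17987128-17987427 and for KINβ2 chr4:9244877-9245176. Capitals mark matches to 4 motifs searched on both strands: the evening element AAAATATCT and the CCA1 site AAAAATCT, bound by morning clock factors, the G-box CACGTG, bound by bZIP and bHLH factors, and TATCCA, an element of sugar-starved α-amylase promoters of rice.
KINβ1: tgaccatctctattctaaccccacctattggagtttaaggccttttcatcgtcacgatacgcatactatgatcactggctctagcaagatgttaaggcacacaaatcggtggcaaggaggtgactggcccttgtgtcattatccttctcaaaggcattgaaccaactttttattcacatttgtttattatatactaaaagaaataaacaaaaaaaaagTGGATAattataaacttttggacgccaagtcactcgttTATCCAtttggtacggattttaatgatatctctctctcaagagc
KINγ: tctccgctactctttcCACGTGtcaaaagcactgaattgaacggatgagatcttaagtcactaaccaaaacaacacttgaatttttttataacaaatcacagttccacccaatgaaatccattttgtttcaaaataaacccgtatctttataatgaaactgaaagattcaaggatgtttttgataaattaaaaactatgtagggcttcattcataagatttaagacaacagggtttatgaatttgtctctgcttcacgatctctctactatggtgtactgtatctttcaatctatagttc
KINβ2: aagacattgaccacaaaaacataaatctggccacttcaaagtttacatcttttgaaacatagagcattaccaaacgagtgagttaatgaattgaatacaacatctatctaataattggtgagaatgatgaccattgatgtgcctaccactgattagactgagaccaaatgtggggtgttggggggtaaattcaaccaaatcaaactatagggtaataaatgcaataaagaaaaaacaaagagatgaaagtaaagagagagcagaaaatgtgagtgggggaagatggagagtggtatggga
KINβ1 held TATCCA on each strand, once as TGGATA 32 bases before the start and once 6 bases after it. KINγ held a G-box 234 bases before the start, and KINβ2 held none of the 4. Among all 10 members only these 2 held any of the motifs, and the evening element and the CCA1 site were in none. Of 27443 promoter windows of the same length, 16.1% held TATCCA, 7.68% the G-box, 7.88% the CCA1 site and 2.82% the evening element. These matches describe letters only.

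**Figure D1:**
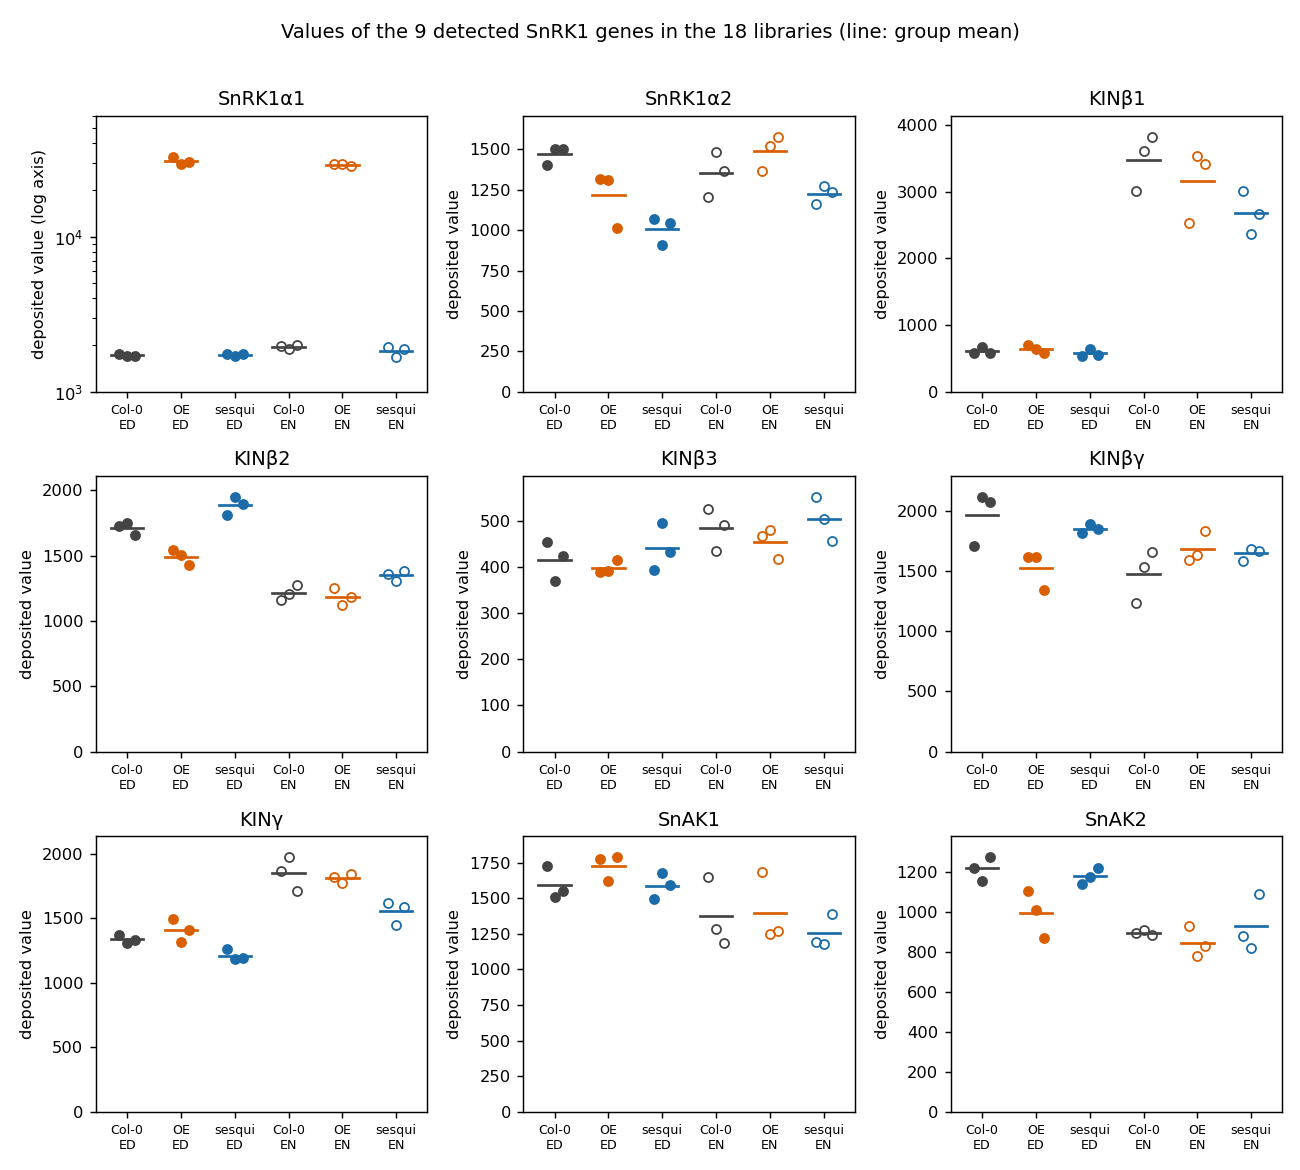
Deposited values (y axis, each panel with its own scale, SnRK1α1 on a log axis) of the 9 detected genes in the 18 libraries, grouped on the x axis by genotype and time (OE, SnRK1α1-OE; sesqui, sesquiα2). Filled points are ED libraries, open points EN libraries and lines the means of 3 libraries. KINβ1 lies between 537 and 703 in all ED libraries and between 2367 and 3827 in all EN libraries.

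SnRK1α1, the catalytic subunit targeted by both lines, was far higher in SnRK1α1-OE than in Col-0 at both times. At ED its values were 1740.0, 1707 and 1685 in Col-0 and 32681, 29302 and 30494 in SnRK1α1-OE. At EN they were 1961, 1883 and 1991 in Col-0 and 29575, 29352 and 28713 in SnRK1α1-OE. The groups lay far apart at both times. SnRK1α1 was 18.0-fold higher in SnRK1α1-OE than in Col-0 at ED (95% interval 15.6 to 20.8, adjusted p = 8.13e-07 in limma, n = 3 per group) and 15.02-fold higher at EN (13.1 to 17.3, adjusted p = 1.94e-06). In Col-0 the value at EN was 1945 ± 55.9 (SD, n = 3) against 1711 ± 27.6 at ED, with no overlap. The log2 fold change of 0.18 was not called (adjusted p = 0.133 in limma). It was called with median-ratio scaling (0.36, adjusted p = 0.0219), quantile normalization (0.29), a fit of all 18 libraries (0.18) and edgeR on recovered reads (0.32), and its adjusted p over the 15 alternatives ranged from 0.0219 to 0.316.

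In the libraries labelled sesquiα2, the values of SnRK1α1 were 1748, 1699 and 1749 at ED and 1950, 1672 and 1875 at EN. The ED values overlapped those of Col-0, and so did the EN values. The log2 differences from Col-0 were 0.018 at ED and −0.088 at EN, neither called. These values count reads over the whole gene and do not show whether a transcript is interrupted by the insertion, so they do not check the label.

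SnRK1α2, the second catalytic subunit, had lower values in the libraries labelled sesquiα2 than in Col-0 at ED, a difference that was not called. Its ED values were 1405, 1506 and 1503 in Col-0, 1318, 1311 and 1017 in SnRK1α1-OE, and 1069, 905 and 1042 in the libraries labelled sesquiα2. All values of each line lay under those of Col-0. Against Col-0 at ED, 24.9% of all genes in SnRK1α1-OE and 14.2% in sesquiα2 had an unadjusted p under 0.05 in limma. The log2 difference of SnRK1α2 was −0.55 (SE 0.0984, 95% interval −0.78 to −0.32) between sesquiα2 and Col-0, which missed the threshold (adjusted p = 0.0699 in limma, 0.110 in edgeR). It passed in the fit of all 18 libraries (adjusted p = 0.0137) and without Col-0 ED replicate 1 (−0.58, adjusted p = 0.0282), and the adjusted p over 15 alternatives ranged from 0.0137 to 0.347. For SnRK1α1-OE at ED the difference was −0.29 (adjusted p = 0.209).

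At EN the values of SnRK1α2 were 1203, 1484 and 1367 in Col-0, 1364, 1519.9 and 1580.3 in SnRK1α1-OE, and 1161, 1275 and 1235 in the libraries labelled sesquiα2. The 3 groups overlapped in part, and the differences from Col-0 were 0.14 for SnRK1α1-OE and −0.14 for sesquiα2, neither called. The medians of all genes in these comparisons were 0.031 and 0.10. Averaged over ED and EN in a fit of all 18 libraries, a contrast added after the data were seen, SnRK1α2 was lower in the libraries labelled sesquiα2 by a called log2 difference of −0.35 (SE 0.0793, adjusted p = 0.0185 in limma, 0.0338 in edgeR). This call was lost when Col-0 EN replicate 2 (adjusted p = 0.0600), sesquiα2 ED replicate 2 (0.0537) or sesquiα2 EN replicate 1 (0.0524) was left out, and the adjusted p over 26 alternatives ranged from 0.00772 to 0.0600. Of the 9 members tested, SnRK1α2 was the 1 called in this contrast, in which 4.19% of all genes tested were called.

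SnRK1α2 in the libraries labelled sesquiα2 rose from ED to EN by a log2 difference of 0.29 (adjusted p = 0.0301 in limma). The corresponding differences were −0.13 in Col-0 and 0.30 in SnRK1α1-OE (adjusted p = 0.0970), neither called. The sesquiα2 call was lost when either sesquiα2 ED replicate 2 (adjusted p = 0.0840) or 3 (0.0521), or EN replicate 2 (0.0875) or 3 (0.0794) was left out, and the adjusted p over 15 alternatives ranged from 0.0279 to 0.0875. The difference in time response from Col-0 was itself not called for sesquiα2 (0.41, adjusted p = 0.170) nor for SnRK1α1-OE (0.43, adjusted p = 0.201).

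SnRK1α3, a further α gene of Arabidopsis, had 0 reads in all 18 libraries, where 3 reads would be 0.0742 to 0.0856 reads per 1e+06 reads. Per kb, the reads of SnRK1α2 were 223-fold above that 3-read limit in the lowest library and 395-fold in the highest. Sequencing was paired-end. A gene whose deposited value was above 0 in only 1 library, rounding residues aside, had 2 reads there in 151 cases and 1 read in 96. If both reads of a pair were counted, the limit would be higher and these folds lower, which was not tested. The coding sequences of SnRK1α1 and SnRK1α2 are identical at 77.4% of aligned bases with a longest identical run of 29 bases, and those of SnRK1α2 and SnRK1α3 at 76.1% with a run of 21. How reads that fit both copies were counted is not given in the sources used here. SnRK1α1 (chr3:31145-34670, minus strand, 15 distinct exons over 3 transcripts) overlaps its neighbour AT3G01100 by 13 bases on the same strand, so that reads in that overlap cannot be assigned. AT3G01100 was not called in SnRK1α1-OE (−0.34 at ED, 0.26 at EN), and AT3G01085, 30 bases from the other end, was at 0 to 2.02 in every library. AT3G01120, the next gene on the same side as AT3G01100, was not called against Col-0 either (−0.38 at ED, 0.29 at EN). SnRK1α2 lies at chr3:11128620-11132105 on the minus strand, and its next gene AT3G29170 was not called in sesquiα2 (−0.19 at ED, −0.046 at EN).

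KINβ1, a β subunit whose expression is known to respond to light and sugar, was the member with the largest difference between ED and EN. Its values in Col-0 were 582, 665 and 584 at ED and 3012, 3607 and 3827 at EN. In SnRK1α1-OE they were 703, 637 and 571 at ED and 2524, 3538 and 3413 at EN. Those labelled sesquiα2 had 537, 631 and 552 at ED and 3009, 2367 and 2665 at EN. The lowest EN value of any genotype was above the highest ED value of any genotype. KINβ1 was 5.68-fold higher at EN in Col-0 (95% interval 4.64 to 6.95, adjusted p = 1.03e-05 in limma), 4.91-fold in SnRK1α1-OE (3.88 to 6.23, adjusted p = 3.50e-06) and 4.66-fold in the libraries labelled sesquiα2 (3.93 to 5.52, adjusted p = 4.24e-07). It was called in each genotype under all 15 alternatives, with log2 differences between 2.13 and 2.68. In Col-0 it stood at percentile 98.5 of all genes tested for this difference, and among the members it was the 1 gene both called and changed by 1 or more on the log2 scale, as were 20.8% of all genes tested.

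At EN the KINβ1 value was 2680 ± 321 in the libraries labelled sesquiα2 and 3482 ± 422 in Col-0 (SD, n = 3), with all 3 values of sesquiα2 under those of Col-0, at the nearest 3009 against 3012. The median log2 difference of all genes between sesquiα2 and Col-0 at EN was 0.10. The log2 difference of KINβ1 was −0.38 (SE 0.128, 95% interval −0.66 to −0.091) and was not called (adjusted p = 0.154 in limma). Without Col-0 EN replicate 1 it was −0.48 with an adjusted p of 0.00778, and the adjusted p over 15 alternatives ranged from 0.00778 to 0.445. For SnRK1α1-OE the difference at EN was −0.15 (95% interval −0.51 to 0.22). At ED the 3 genotypes overlapped, with 611 ± 47.3 for Col-0, 637 ± 66.1 for SnRK1α1-OE and 574 ± 50.7 for sesquiα2. The gene lies at chr5:7205477-7208613 on the plus strand.

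KINβ2, the second β subunit, was lower at EN than at ED in each genotype. In Col-0 its values were 1727, 1752 and 1659 at ED and 1163, 1204 and 1278 at EN. SnRK1α1-OE had values of 1541, 1505 and 1427 at ED and 1252, 1120.1 and 1181 at EN. Libraries labelled sesquiα2 had 1809, 1952 and 1899 at ED and 1363, 1304 and 1384 at EN. No EN value reached an ED value, in any genotype or between genotypes. KINβ2 was called with log2 differences of −0.50 for Col-0 (adjusted p = 0.00421 in limma), −0.33 for SnRK1α1-OE (0.0294) and −0.48 for sesquiα2 (0.000622). The Col-0 call was lost with median-ratio scaling (−0.32, adjusted p = 0.0524). The SnRK1α1-OE call was lost without SnRK1α1-OE ED replicates 1 (adjusted p = 0.105) and 2 (0.0726) and without SnRK1α1-OE EN replicates 2 (0.127) and 3 (0.0825), and the adjusted p over the alternatives ranged from 0.00172 to 0.127. The all-gene median moved with the scaling in Col-0, where it was −0.16 as deposited and 0.014 after median-ratio scaling.

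KINβ3, a short β subunit of plants that lacks the carbohydrate-binding stretch of the others, ranged from 370 to 552 over all 18 libraries. Its ED and EN values overlapped in Col-0 and sesquiα2, and in SnRK1α1-OE the highest ED value of 415.5 lay next to the lowest EN value of 415.8. Its log2 differences of 0.22 for Col-0, 0.19 for SnRK1α1-OE and 0.20 for sesquiα2 were not called. In Col-0 it was called with median-ratio scaling (0.40, adjusted p = 0.0383) and with quantile normalization (0.39, adjusted p = 0.0411), over alternatives whose adjusted p reached 0.510. Over the 3 genotypes together in the fit of 18 libraries it was called at 0.20 (adjusted p = 0.0174 in limma).

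KINγ, a γ-type gene whose product has not been placed in the plant complex with certainty, was higher at EN in each genotype. In Col-0 its values were 1375, 1308 and 1331 at ED and 1872, 1979 and 1709 at EN. In SnRK1α1-OE they were 1495, 1314 and 1411 at ED and 1824, 1777 and 1841 at EN. Those labelled sesquiα2 had 1261, 1182 and 1193 at ED and 1620, 1453 and 1591 at EN. ED and EN did not overlap within any genotype. KINγ was called with log2 differences of 0.47 for Col-0 (adjusted p = 0.00706 in limma), 0.37 for SnRK1α1-OE (0.0181) and 0.36 for sesquiα2 (0.00523). The SnRK1α1-OE call was lost without SnRK1α1-OE ED replicate 2 (adjusted p = 0.0641), EN replicate 2 (0.0596) and EN replicate 3 (0.0623), over alternatives that began at 0.00128.

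At EN the values of KINγ in the libraries labelled sesquiα2 were all under those of Col-0, with a log2 difference of −0.25 (95% interval −0.48 to −0.025) that was not called (adjusted p = 0.218 in limma). The median of all genes there was 0.10. Averaged over ED and EN the KINγ difference was −0.20 (adjusted p = 0.0634). It was called with median-ratio scaling (−0.24, adjusted p = 0.0368) and without Col-0 EN replicate 3 (−0.23, adjusted p = 0.0489), and the adjusted p over 26 alternatives ranged from 0.0368 to 0.162.

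KINβγ, the γ-type subunit that joins a carbohydrate-binding stretch to the γ repeats, had values in Col-0 of 1713, 2120.3 and 2074 at ED and 1236, 1531 and 1658 at EN. SnRK1α1-OE had values of 1620.3, 1621 and 1340.2 at ED and 1590.5, 1635 and 1838 at EN. Libraries labelled sesquiα2 had 1821, 1889 and 1851 at ED and 1586, 1685 and 1672 at EN. ED lay above EN without overlap in Col-0 and sesquiα2, and the 2 times overlapped in SnRK1α1-OE. KINβγ was called at EN against ED in Col-0 (−0.42, adjusted p = 0.0492 in limma) and not in SnRK1α1-OE (0.15) or sesquiα2 (−0.17, adjusted p = 0.0806). The Col-0 call was lost without Col-0 ED replicates 2 (adjusted p = 0.138) and 3 (0.156) and without Col-0 EN replicates 1 (0.0899) and 2 (0.0991). It was also lost with no filter (0.0560), median-ratio scaling (0.272), quantile normalization (0.0999) and edgeR (0.212), and the lowest adjusted p of any alternative was 0.00553.

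At ED, KINβγ in SnRK1α1-OE differed from Col-0 by −0.37, which was not called (adjusted p = 0.146 in limma). Without Col-0 ED replicate 1 this was −0.46 with an adjusted p of 0.0496, the lowest over 15 alternatives, of which the highest was 0.391. The difference between the time responses of SnRK1α1-OE and Col-0 was 0.57 for KINβγ and was not called (adjusted p = 0.147). The median of all genes in that contrast was 0.145.

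The SnAK genes were lower at EN than at ED on average. SnAK2 in Col-0 had values of 1219.6, 1155 and 1275 at ED and 892, 909 and 882 at EN. In SnRK1α1-OE they were 1104, 1011 and 867 at ED and 929.6, 777 and 829 at EN. Those labelled sesquiα2 had 1141, 1173 and 1219.0 at ED and 881, 817 and 1089.5 at EN. The times did not overlap in Col-0 and sesquiα2 and overlapped in SnRK1α1-OE. SnAK2 was called in Col-0 (−0.44, adjusted p = 0.00727 in limma) and sesquiα2 (−0.35, adjusted p = 0.0278) and not in SnRK1α1-OE (−0.23). The Col-0 call was lost with median-ratio scaling (−0.27, adjusted p = 0.0710), and the sesquiα2 call without sesquiα2 ED replicate 3 (adjusted p = 0.0847), EN replicate 1 (0.0973) and EN replicate 2 (0.0943), over alternatives that began at 0.00545.

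SnAK1 in Col-0 had values of 1725, 1511 and 1555 at ED and 1649, 1287 and 1184 at EN. In SnRK1α1-OE they were 1775, 1624 and 1793 at ED and 1683, 1246 and 1268 at EN. Libraries labelled sesquiα2 had 1497, 1675 and 1596 at ED and 1193, 1176 and 1393 at EN. The EN replicate 1 of Col-0 and of SnRK1α1-OE lay within the ED values, and the times did not overlap in sesquiα2. SnAK1 was called in sesquiα2 (−0.34, adjusted p = 0.0128 in limma) and not in Col-0 (−0.23, adjusted p = 0.234) or SnRK1α1-OE (−0.32, adjusted p = 0.0869). Without EN replicate 1 of the genotype the call was gained in Col-0 (−0.37, adjusted p = 0.0262) and SnRK1α1-OE (−0.46, adjusted p = 0.00881) and lost in sesquiα2 (−0.31, adjusted p = 0.0554). Over all alternatives the adjusted p ranged from 0.0262 to 0.779 in Col-0, from 0.00881 to 0.279 in SnRK1α1-OE and from 0.00740 to 0.0554 in sesquiα2. The coding sequences of SnAK1 and SnAK2 are identical at 83.2% of aligned bases with a longest identical run of 33 bases, so that shared reads are uncertain here too.

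**Figure D2:**
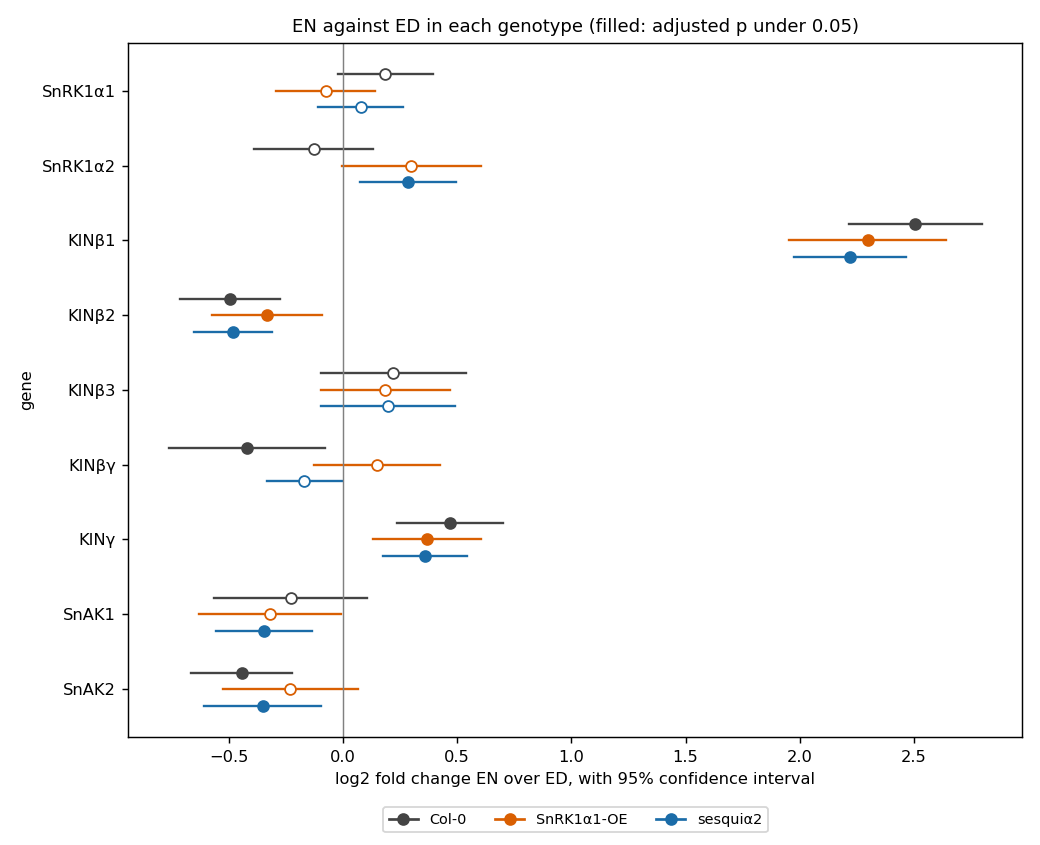
Log2 fold change of EN over ED (x axis) for the 9 tested genes (y axis) in each genotype, with bars for the 95% confidence interval and filled points where adjusted p was under 0.05. KINβ1 lies between 2.22 and 2.51 and the other genes between −0.50 and 0.47.

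Of the 9 members tested, 5 were called between EN and ED in Col-0 (2 higher, 3 lower), where 45% of all genes tested were called (16.1% higher, 28.9% lower). In SnRK1α1-OE it was 3 against a background of 45.5%, and in sesquiα2 6 against 49%. Over the 3 genotypes together 7 were called (4 higher, 3 lower) against 65.4% (28.1% higher, 37.3% lower), and the numbers of members called were thus near the background shares. The 4 higher were KINβ1 (2.34, SE 0.0791), KINγ (0.40), KINβ3 (0.20) and SnRK1α2 (0.15, adjusted p = 0.0474 in limma), and the 3 lower were KINβ2 (−0.44), SnAK2 (−0.34) and SnAK1 (−0.30, adjusted p = 0.00220). SnRK1α2 lost this call in 14 of 26 alternatives, 12 of them with a single library left out, with adjusted p between 0.0113 and 0.102. The other 6 kept theirs in all 26 alternatives.

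Against Col-0, SnRK1α1 was the 1 member of 9 called in SnRK1α1-OE at ED, where 0.276% of all genes tested were called, and the 1 called at EN, where the background was 0.067%. The other 8 members of that line had log2 differences from −0.37 to 0.12 at ED and from −0.15 to 0.20 at EN, with median −0.13 and −0.033, while the medians of all genes were −0.12 and 0.031. For the libraries labelled sesquiα2, limma called 0 of 9 members at ED (background 0.419%) and 0 at EN (2.95%). Under an unadjusted p of 0.05 these were 1 member (14.2% of all genes) and 2 members (18.8%), and edgeR also called 0 at both times. The medians of all genes in sesquiα2 against Col-0 were 0.00066 at ED and 0.10 at EN. In a test of whether a line's difference from Col-0 changed between the times, 0 of 9 were called in SnRK1α1-OE (background 0.21%; 3 members and 20.5% of all genes under an unadjusted p of 0.05) and 0 in sesquiα2 (0.815%; 1 member and 17.2%), and edgeR called 0 in both. All line comparisons at a time share the same Col-0 libraries.

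**Figure D3:**
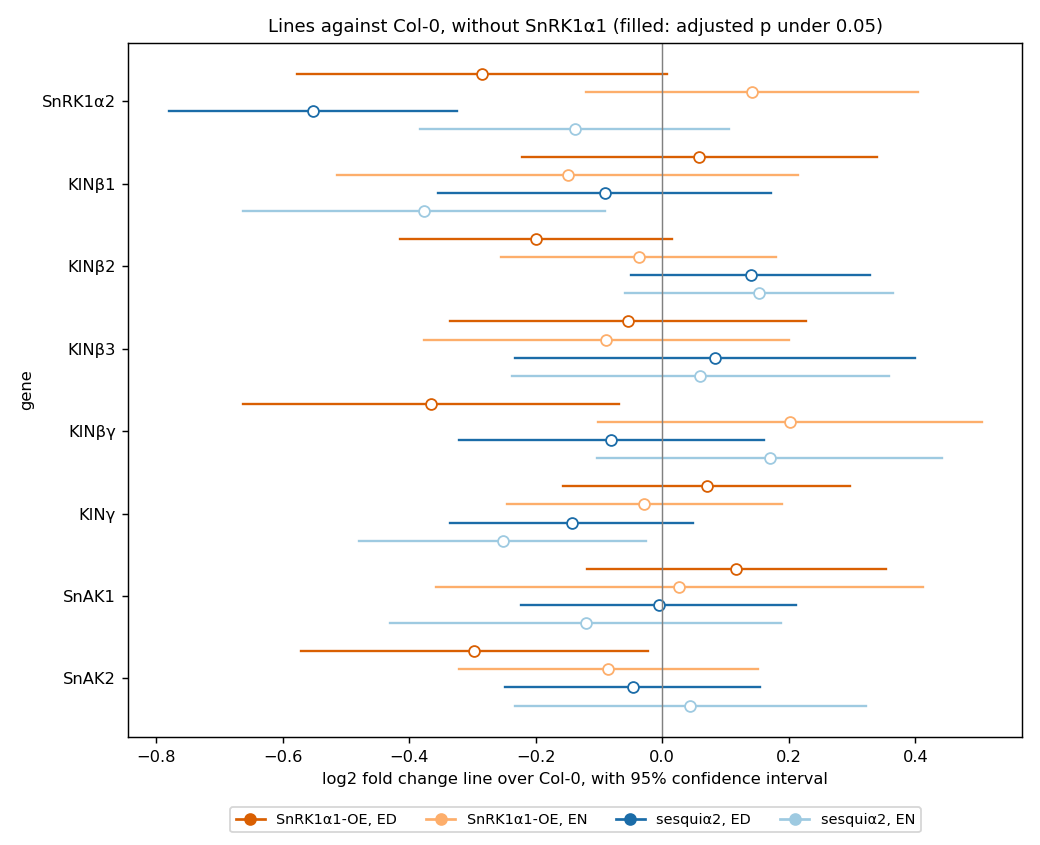
Log2 fold change of each line over Col-0 (x axis) at ED and EN for the 8 tested genes other than SnRK1α1 (y axis), with bars for the 95% confidence interval. No point is filled, since no adjusted p was under 0.05, and SnRK1α2 in sesquiα2 at ED lies lowest, at −0.55.

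Per kb, the order of levels in Col-0 turned over between the times. At ED, KINβ2 was highest at 1016, followed by KINγ (822), SnAK1 (819), KINβγ (792), SnRK1α1 (705) and SnRK1α2 (697), each of which overlapped the next. SnAK2 (539) lay apart below them, and KINβ1 (373) and KINβ3 (337) overlapped at the bottom, above the undetected SnRK1α3. At EN, KINβ1 was highest at 2128, with KINγ (1139) and SnRK1α1 (801) next, and no overlap between these. KINβ2 (721), SnAK1 (704), SnRK1α2 (640) and KINβγ (593) then overlapped in turn, and SnAK2 (396) and KINβ3 (393) overlapped below them. The order depends on the length used, which for KINβ3 is 1231 bases of exon but 345 of coding sequence. No order by coding length was computed.

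The mix of β transcripts differed between ED and EN. Per kb, KINβ1 made up 21.6 ± 1.504% of β transcripts at ED in Col-0, against 24.3 ± 1.56% for SnRK1α1-OE and 19.2 ± 0.627% in the libraries labelled sesquiα2 (SD, n = 3). At EN it made up 65.5 ± 2.85%, 64.0 ± 5.25% and 57.4 ± 2.21%. The share of KINβ1 was 40.6 percentage points higher at EN (two-sided exact permutation test within genotypes, p = 0.00025, the smallest it allows, adjusted p = 0.000917 over the 11 tests of shares). By the same test and p, the share of KINβ2 dropped by 33.8 points, from 58.9% to 22.3% in Col-0, and that of KINβ3 dropped by 6.79 points. A share depends on the other members of its sum: the level of KINβ3 itself was higher at EN over the 3 genotypes (0.20 on the log2 scale, as above). It also depends on the length used. The KINβ1 difference in share ranged from 36.3 to 41.6 points over 20 alternatives, which included coding length and no division by length. The summed β level per kb was 1.88-fold higher at EN for Col-0, also 1.88-fold for SnRK1α1-OE and 1.56-fold for sesquiα2, while the summed SnAK level was 0.811, 0.822 and 0.789 of that at ED in the same order.

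In the libraries labelled sesquiα2 the share of KINβ1 was 5.29 points lower than in Col-0 over both times (exact permutation test within times, p = 0.005, the smallest it allows, adjusted p = 0.011), and that of KINβ2 was 4.20 points higher (p = 0.01 in the same exact test, adjusted p = 0.0183). The KINβ3 share differed by 1.09 points (exact p = 0.28). These line tests of β shares were not in the plan and were not run under alternatives. The level of KINβ1 itself was not called in sesquiα2 against Col-0 (limma adjusted p = 0.154 at EN, 0.206 averaged over ED and EN). In SnRK1α1-OE none of the 3 shares passed, with 0.583 points for KINβ1 (exact p = 0.785). Of α transcripts per kb, SnRK1α1 made up 50.3 ± 1.36% at ED and 55.7 ± 3.10% at EN in Col-0, 95.7 ± 0.606% and 94.5 ± 0.463% in SnRK1α1-OE, and 60.0 ± 1.75% and 56.5 ± 3.06% in sesquiα2. The sesquiα2 difference of 5.29 points had an exact permutation p of 0.035 and an adjusted p of 0.055, and did not pass over the 11 tests. The SnRK1α1 share in sesquiα2 counts reads over the whole gene. It does not show whether a transcript is interrupted by the insertion.

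**Figure D4:**
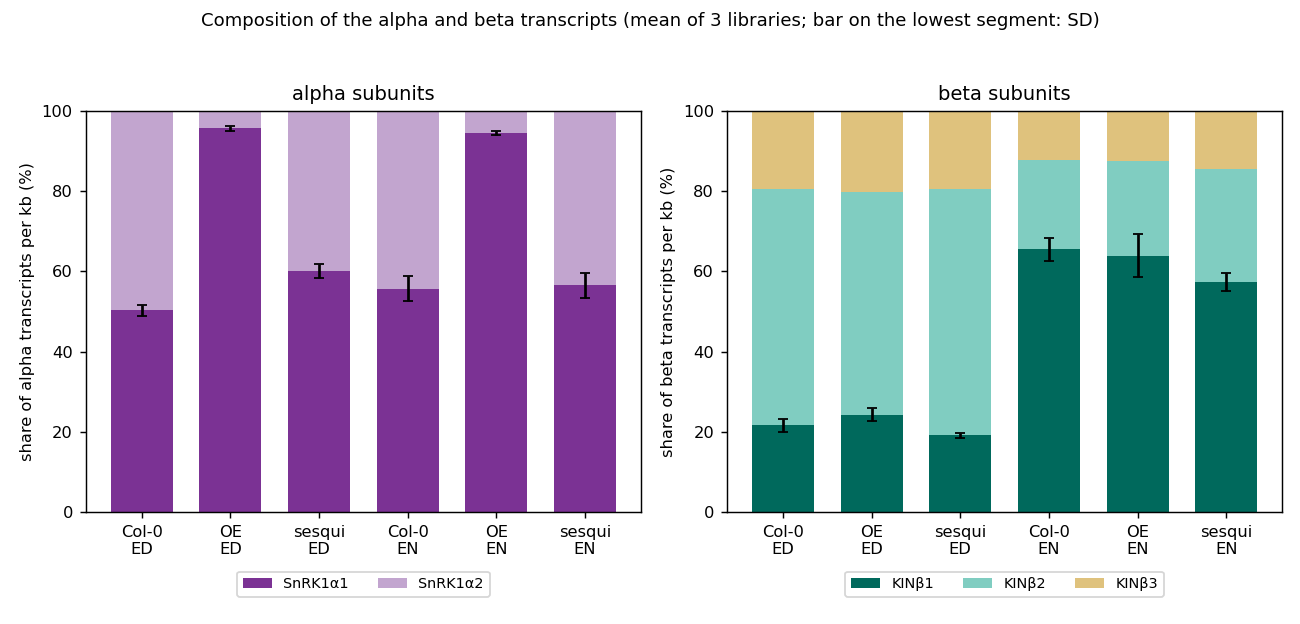
Share of the α transcripts (left) and of the β transcripts (right) per kb (y axis, %) in the 6 groups (x axis), as stacked means of 3 libraries with the SD on the lowest segment. KINβ1 goes from 21.6% at ED to 65.5% at EN in Col-0, and SnRK1α1 makes up 95.7% and 94.5% of α transcripts in SnRK1α1-OE. The SnRK1α1 reads in sesquiα2 do not show whether a transcript is interrupted by the insertion.

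Other genes of the pathway were taken from 2 lists. Of 13 SnRK1 regulators 11 were tested, among them the phosphatases ABI1 and PP2CA, which inactivate SnRK1, the trehalose 6-phosphate synthase TPS1 and the growth kinase TOR. Between EN and ED in Col-0, 5 of 11 were called, near the 45% of all genes. ABI1 (−0.75), PP2CA (−0.60) and RAPTOR1A (−0.95) were among the 4 lower and LST8-1 (0.45) was the 1 higher. In SnRK1α1-OE 4 were called (45.5% of all genes), with ABI1 (−0.44) lower and NMT1 (0.30), TPS1 (0.43) and TOR (0.76) higher, and in sesquiα2 4 (49% of all genes), with ABI1 (−0.63) and RAPTOR1A (−0.42) lower and NMT1 (0.37) and SIZ1 (0.25) higher. In the libraries labelled sesquiα2 at EN, PP2CA was the 1 regulator of 11 called against Col-0, where 2.95% of all genes were called (0.97, adjusted p = 0.00328 in limma), with a value of 1960 ± 200 against 1002 ± 84.2 (SD, n = 3). Limma called 0 of 11 regulators against Col-0 in SnRK1α1-OE at ED (3 under an unadjusted p of 0.05, as were 24.9% of all genes), 0 in SnRK1α1-OE at EN (0 unadjusted, 3.94%) and 0 in sesquiα2 at ED (2 unadjusted, 14.2%), and edgeR called 0 in each.

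The second list holds 7 genes that SnRK1 is known to induce, of which BGAL4, DIN10 and PYL5 were picked by the study from these libraries. All 7 were called higher at EN in each genotype, where 45%, 45.5% and 49% of all genes were called in either direction, with median log2 differences of 3.77 (Col-0), 2.85 (SnRK1α1-OE) and 3.08 (sesquiα2), where the medians of all genes were −0.16, −0.029 and −0.031. In the libraries labelled sesquiα2 at EN, BGAL4 (−1.67), DIN10 (−0.98) and PYL5 (−1.34) were the 3 of 7 called against Col-0, all lower, where 2.95% of all genes were called. These 3 are those picked from these libraries, which is not independent evidence of their direction. In SnRK1α1-OE limma called 0 of 7 against Col-0 at ED, with 5 under an unadjusted p of 0.05 (24.9% of all genes), and 0 at EN, with 1 (3.94%), and edgeR called 0 at both.

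Genes with the most similar profile over the 18 libraries are given as a description, by Pearson's r of the log2 values. For KINβ1 they were AT2G48020 (0.994), ACR3 (0.993) and AT1G15740 (0.992), for KINγ UGE1 (0.975), PYL5 (0.970) and GDH1 (0.962), and for KINβ2 AS1 (0.981), AT2G37960 (0.969) and MPPA2 (0.967). For SnRK1α1 the nearest were AT3G05955 (0.957), AT5G56370 (0.942) and SPH15 (0.941), for SnRK1α2 ORP1A (0.901), VSR1 (0.896) and AAO1 (0.870), and for KINβ3 AT5G00910 (0.902), AGP26 (0.885) and WAVH1 (0.883). For SnAK1 they were AT1G72020, TOM20-3 and MGP1 (each 0.966), and for SnAK2 AT2G20710 (0.947), CYP63 (0.935) and RCF3 (0.933). The 18 libraries share genotype and time, which enter these values. With the group means taken out, r was −0.141 to 0.351 for the genes named with SnRK1α1. It was 0.387 to 0.732 for those of KINβ1, 0.367 to 0.661 for KINγ and 0.563 to 0.765 for KINβ2. For SnRK1α2 it was 0.768 to 0.793, for KINβ3 0.769 to 0.817, for SnAK2 0.770 to 0.818 and for SnAK1 0.936 to 0.959.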

How the data were processed

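RNA was measured by RNA-seq in 18 libraries, 3 for each of 6 groups. The authors mapped reads to TAIR10 with HISAT2 and counted them per gene with featureCounts (SAMtools and edgeR are also named in the submitters' notes). The versions of HISAT2 and featureCounts, the annotation release and the strand setting are not given in the sources used here. The deposited values, a signal per gene, are edgeR pseudo-counts that the authors multiplied by the library's TMM (composition) factor, so that each library sums to between 37929523 and 37930213 whatever its composition. Whole reads recovered from them gave back 590994 of 590994 values (100%, tolerance 0.001, or 1e-06 of the value), with 35050877 to 40416618 reads per library.

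Genes were tested where the value reached 10 in at least 3 libraries and summed to at least 15. The test was limma 3.58.1 (R 4.3.3) on log2(value + 1), with a trended, robust variance and Benjamini-Hochberg adjustment over all genes tested. Each comparison of groups used its own 6 libraries, the mean of EN against ED used 18, and the test of time dependence used 12. Groups came from the sample titles, and replicate numbers follow those titles. Nothing given says that the replicates came from separate sowings, so p-values measure the spread between pools. Shares were compared by two-sided exact permutation tests. With 3 against 3 libraries an exact test of a single comparison cannot go below 0.1. The 3-read floors cover counting error only, and the intervals of fold changes rest on the spread between libraries.

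Alternatives were another pseudocount, no filter, median-ratio and quantile scaling, a variance without the robust step, a replicate block, a fit of all 18 libraries and leaving out each library. Chosen after seeing the data were edgeR 4.0.16 (quasi-likelihood) on the recovered reads, line means over ED and EN, and coding length for shares. The planned tests of shares were of KINβ1 between EN and ED and of SnRK1α1 in each line. The other tests of shares were added to these and were not run under alternatives. The scripts were tested on simulated data. Named genes are all 10 members, at most 4 called genes of each list per comparison, the genes next to SnRK1α1 and SnRK1α2, and the 3 genes nearest in profile to SnRK1α1 and to each member called in the mean of EN against ED. The other list genes and markers are named as background. The members and the lists were chosen with earlier results of these data known. Gene positions and promoter windows come from the RefSeq annotation of TAIR10.1, in which 32548 of the 32833 genes were found.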

Additional observations from a re-analysis of the deposited data

How the results depend on the processing

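Among the 108 member estimates with a test, 1894 of 2025 values under alternatives kept both sign and side of the threshold, 44 lost a call, 23 gained one and 64 had the other sign. Those 64 belong to 23 estimates, none of which was called in its comparison or in the alternative concerned, and none of which exceeded 0.149 in size. The cause of these shifts was not tested, except that a left-out library leaves fewer samples. Deposited totals were about equal in all libraries. The median of all genes was −0.16 for EN against ED in Col-0 as deposited, and 0.014 after median-ratio scaling.

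The number of members called in SnRK1α1-OE at ED ranged from 1 to 2 with a library left out, in sesquiα2 at ED from 0 to 1 (also 1 in the fit of all 18 libraries), in sesquiα2 at EN from 0 to 1, and between EN and ED from 1 to 4 in SnRK1α1-OE. It was 1 in SnRK1α1-OE without ED replicate 2, EN replicate 2 or EN replicate 3. The same range was 4 to 5 in Col-0, 4 to 6 in sesquiα2 and 6 to 7 over the 3 genotypes. For the sesquiα2 mean of ED and EN it was 0 to 2, and 2 with median-ratio scaling. The SnRK1α1 share in sesquiα2 differed by 4.49 to 6.10 points with a library left out, with an exact permutation p of up to 0.065.

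With the replicate block the members called were 5 in Col-0, 2 in SnRK1α1-OE (KINβ2 lost, limma adjusted p = 0.0715), 5 in sesquiα2 (SnRK1α2 lost, 0.0758) and 6 over the genotypes (SnRK1α2 lost, 0.0593), and 1, 1, 0 and 0 against Col-0. Same-numbered libraries of 2 groups did not deviate together as a rule (r from −0.393 to 0.503), nor did every library correlate best with its own number. Replicate 1 of SnRK1α1-OE and replicate 1 of Col-0 at EN did deviate together, with r of 0.503. That SnRK1α1-OE library reached at most −0.318 with the other Col-0 libraries at EN. The column headers of these 2 libraries end in S5 and S2. Those of the other EN libraries of SnRK1α1-OE and Col-0 end in S15 to S21. What these numbers stand for is not given, and the cause was not tested. The numbers are not taken as pairs.

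The number of all genes called moved more. For SnRK1α1-OE at ED it was 54, and 190 with median-ratio scaling, 177 with quantile normalization, 28 without the robust variance, 19 with the replicate block, 1864 in the fit of all 18 and 4 to 2137 with a library left out (2137 without Col-0 ED replicate 1). For SnRK1α1-OE at EN it was 13, and 197 with the block and 5 or more with a library left out. For sesquiα2 at ED it was 82, and 20 with the block, 647 in the fit of all 18 and 1 to 1112 with a library left out (1112 without Col-0 ED replicate 1). For sesquiα2 at EN it was 577, and 109 to 2718 with a library left out (2718 without Col-0 EN replicate 1). For the time dependence of SnRK1α1-OE it was 42, and 4 to 498 over the settings that keep all libraries and 0 to 1132 with a library left out. For that of sesquiα2 it was 164, and 64 to 378 and 7 to 1564 in the same order. The highest values came without Col-0 ED replicate 1.

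Values of the other sign were as follows, in the order median-ratio, quantile and edgeR where 3 are given. For KINβ3 in SnRK1α1-OE at ED they were 0.043, 0.045 and 0.014. For SnAK1 in SnRK1α1-OE at EN they were −0.00078, −0.014 and −0.0025, and in sesquiα2 at ED 0.029 with quantile normalization. For sesquiα2 at EN they were −0.039, −0.060 and −0.029 for KINβ3, and −0.055, −0.032 and −0.042 for SnAK2. For SnRK1α2 between EN and ED in Col-0 they were 0.050 with median-ratio scaling and 0.014 with edgeR. For the time dependence of sesquiα2 they were −0.11, −0.10 and −0.10 for KINβ2, and −0.036, −0.017 and −0.018 for SnAK2. For KINβγ in the sesquiα2 mean it was −0.0020 with median-ratio scaling.

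With a library left out, the SnRK1α1-OE estimates that took the other sign spanned −0.015 to 0.14 for KINβ1 and −0.13 to 0.011 for KINβ3 at ED. At EN they spanned −0.25 to 0.0044 for KINβ1, −0.078 to 0.0022 for KINβ2, −0.085 to 0.020 for KINγ and −0.11 to 0.17 for SnAK1. For the mean of ED and EN they spanned −0.10 to 0.032 for KINβ1 and −0.0074 to 0.045 for KINγ, and for time dependence −0.11 to 0.046 for KINβ3 and −0.23 to 0.049 for SnAK1. The sesquiα2 estimates spanned −0.0055 to 0.16 for KINβ3 and −0.045 to 0.051 for SnAK1 at ED. At EN they spanned −0.014 to 0.13 for KINβ3, −0.22 to 0.018 for SnAK1 and −0.076 to 0.13 for SnAK2. For the mean they spanned −0.016 to 0.089 for KINβγ, −0.11 to 0.0060 for SnAK1 and −0.061 to 0.043 for SnAK2. For time dependence they spanned −0.018 to 0.050 for KINβ2, −0.10 to 0.066 for KINβ3, −0.22 to 0.023 for SnAK1 and −0.030 to 0.18 for SnAK2.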

Other observations

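The deviations of single libraries from their group means, over all 18 libraries, varied together for some members. Of all pairs, the 5 largest values of Pearson's r in size were 0.716 between SnRK1α2 and KINβγ, −0.687 between SnRK1α2 and KINβ3, −0.659 between SnAK1 and KINβγ, −0.625 between SnAK1 and KINβ1 and −0.606 between SnAK1 and SnRK1α2. The deviations of SnAK1 and SnAK2 also went with those of the TMM factor of the library, with r of 0.758 and 0.590. These are descriptions over libraries of 6 groups that share one scaling, and the part of that factor in the values of these genes was not tested.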
